A study of Mus musculus with 12 samples.

Results

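The PYHIN family, also called the Ifi200 or HIN-200 family, was followed in mouse mammary tumours through 10 member genes, Aim2, Ifi202b, Ifi203, Ifi204, Ifi205, Ifi207, Ifi208, Ifi209, Ifi211 and Mndal. The members were taken by gene symbol, and all 10 were among the 23667 symbols of the deposited table and among the 13886 genes tested. Tumours were grown from 4T1, a mouse mammary carcinoma line, and the RNA of a whole tumour holds transcripts of the 4T1 cells and of the host's immune and stromal cells. Control tumours (CTRL) and tumours of cells depleted of TREX1 with CRISPR-Cas9 (labelled TREX1 KO, here KO) came from mice given isotype antibodies (IgG) or checkpoint antibodies (ICB), with 3 libraries in each of the 4 groups CTRL-IgG, CTRL-ICB, KO-IgG and KO-ICB. ICB combined anti-PD1 (200 ug) with anti-CTLA4 (100 ug), given 3 times a week over 1 week. The sources used here do not give the mouse strain, the age, or whether the depleted cells were 1 clone. Values are TPM, an abundance per transcript length scaled to one total in every library. Read numbers cannot be had from TPM, and the depth is unknown.

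PYHIN proteins are interferon-inducible proteins that in most members pair an N-terminal pyrin domain, which binds other pyrin domains, with 1 or more C-terminal HIN domains, which bind double-stranded DNA. AIM2 senses DNA in the cytosol and builds an inflammasome with ASC and caspase 1, while mouse p204, the product of Ifi204, has been studied as a DNA sensor upstream of STING. p202, the product of Ifi202b, carries HIN domains but no pyrin domain and can hold AIM2 in check. TREX1 removes DNA from the cytosol, the ligand of these sensors.

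The 10 genes lie in 1 cluster of 680.9 kb on chromosome 1 (GRCm38, GENCODE M21), from 173350879, the start of Aim2, to 174031810, the end of Ifi205, with 3 on the plus strand and 7 on the minus strand. Several are close copies, and reads can be shared between them. Of the distinct 31-base words of each gene's annotated transcripts, none was held by another family gene for Aim2 and Ifi202b, 13.7% for Ifi207, 20.7% for Ifi203, 22.1% for Ifi205, 25.3% for Mndal, 29.4% for Ifi204, 33.5% for Ifi208, 46.9% for Ifi209 and 78.9% for Ifi211. Ifi211 shared most with Ifi205 (49.5% of its words), Ifi208 with Ifi213 (30.7%) and Ifi209 with Ifi214 (46.8%). The annotated span of Mndal (173849126 to 173942491) holds that of Ifi211 and overlaps that of Ifi203, all on the minus strand, and that of Aim2 overlaps Cadm3 on the opposite strand, which stood at 0.179 to 1.71 TPM. Values of Aim2 and Ifi202b therefore depend least on how reads were split within the family. Those of Ifi211 and Ifi209, with the largest shared parts, are uncertain, and those of the other members are uncertain too. Ifi213, the main partner of Ifi208, averaged 0.814 TPM in CTRL and 1.03 TPM in KO, against 0.613 and 2.15 TPM for Ifi208. Ifi205 shares 20.5% of its words with the more abundant Ifi211.

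**Figure D1:**
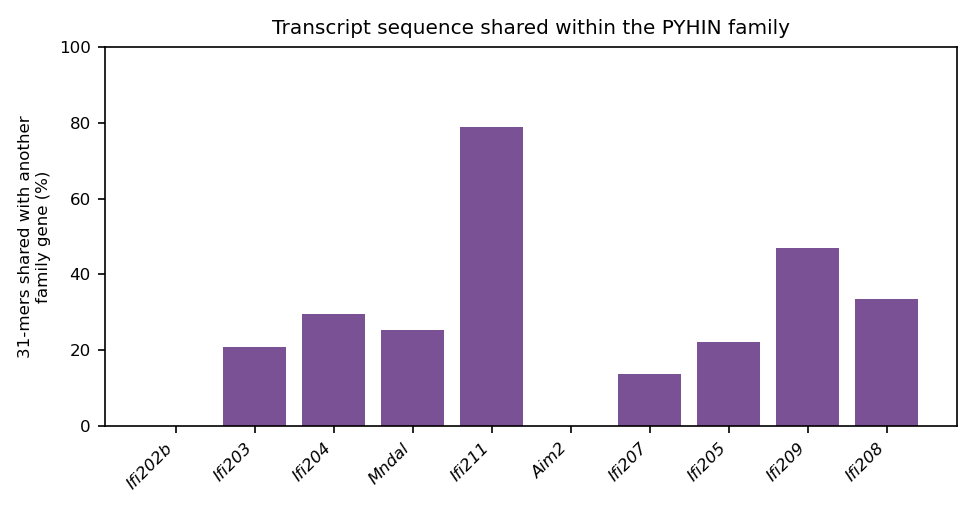
Share of each member's transcript 31-base words (vertical axis, %) that another family gene also holds, with members ordered by mean TPM. Ifi202b and Aim2 share 0%, and Ifi211 shares most at 78.9%.

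Promoter windows show how alike some members are at their starts and are printed for that reason. The RefSeq table (GRCm38.p6) held windows of 300 bases, 250 before and 50 after an annotated start, for 9 of the 10 members, 11 windows in all, and Ifi204 was not matched. They were searched on both strands for the core of the interferon-stimulated response element (ISRE, bound by IRF and ISGF3 factors), which is GAAA, any 2 bases and GAAA, and for the gamma-activated site (GAS), TTCNNNGAA. An ISRE core stood in 7 of 11 windows, those of 6 members (Ifi203, Ifi205, Ifi207, Ifi208, Ifi211 and Mndal), against 3.45% of the 32544 windows of all genes. A GAS stood in 1 of 11 windows, that of Ifi202b, a share near the 8.33% of all windows. The windows of Ifi203 and Mndal were identical at 90.7% of aligned positions and those of Ifi207 and Ifi211 at 85.9%, while the other pairs reached at most 55%. Neither motif was in the window of Aim2 or Ifi209. The windows of Ifi202b and of 5 members with an ISRE core follow, on the strand of the gene, 5′ to 3′, with the motif in capitals.
Ifi203, chr1:173942443-173942742, minus strand: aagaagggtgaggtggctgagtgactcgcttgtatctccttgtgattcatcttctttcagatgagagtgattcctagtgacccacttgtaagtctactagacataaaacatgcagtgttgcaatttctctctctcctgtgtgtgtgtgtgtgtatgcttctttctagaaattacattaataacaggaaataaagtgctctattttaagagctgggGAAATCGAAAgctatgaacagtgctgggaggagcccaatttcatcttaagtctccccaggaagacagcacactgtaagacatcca
Mndal, chr1:173880138-173880437, minus strand: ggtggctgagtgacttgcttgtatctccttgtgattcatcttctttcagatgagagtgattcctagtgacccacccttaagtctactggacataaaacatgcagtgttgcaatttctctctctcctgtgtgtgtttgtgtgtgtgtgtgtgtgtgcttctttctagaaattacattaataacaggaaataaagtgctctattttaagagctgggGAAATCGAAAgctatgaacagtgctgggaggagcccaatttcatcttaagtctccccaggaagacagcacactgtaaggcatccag
Ifi207, chr1:173741760-173742059, minus strand: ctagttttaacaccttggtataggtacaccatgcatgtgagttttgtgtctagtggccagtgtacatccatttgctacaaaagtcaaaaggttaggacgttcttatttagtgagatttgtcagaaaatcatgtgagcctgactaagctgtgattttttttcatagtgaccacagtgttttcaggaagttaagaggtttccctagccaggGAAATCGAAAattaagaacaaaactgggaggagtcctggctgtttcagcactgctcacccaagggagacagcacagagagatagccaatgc
Ifi211, chr1:173912997-173913296, minus strand: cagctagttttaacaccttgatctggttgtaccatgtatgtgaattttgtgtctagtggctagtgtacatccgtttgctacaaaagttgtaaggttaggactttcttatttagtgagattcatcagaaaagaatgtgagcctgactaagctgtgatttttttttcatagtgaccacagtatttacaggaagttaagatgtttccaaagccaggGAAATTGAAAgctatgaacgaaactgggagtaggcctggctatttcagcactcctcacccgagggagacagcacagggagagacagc
Ifi208, chr1:173673415-173673714, plus strand: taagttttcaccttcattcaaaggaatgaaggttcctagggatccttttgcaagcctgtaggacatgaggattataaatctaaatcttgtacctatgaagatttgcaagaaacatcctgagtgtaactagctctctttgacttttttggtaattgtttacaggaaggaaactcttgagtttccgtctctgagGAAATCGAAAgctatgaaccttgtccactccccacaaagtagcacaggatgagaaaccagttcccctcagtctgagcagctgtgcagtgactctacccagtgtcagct
Ifi202b, chr1:173982795-173983094, minus strand: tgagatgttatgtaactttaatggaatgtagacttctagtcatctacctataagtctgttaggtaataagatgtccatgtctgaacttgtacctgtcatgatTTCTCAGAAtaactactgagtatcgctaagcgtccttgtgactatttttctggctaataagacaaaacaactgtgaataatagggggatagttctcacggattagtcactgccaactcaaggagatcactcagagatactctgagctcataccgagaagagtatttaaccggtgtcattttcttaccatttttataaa

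The ISRE core began 35 bases before the annotated start in Ifi203, 36 in Mndal, 37 in Ifi211, 41 in Ifi207 and 58 in Ifi208, and the GAS began 148 bases before the start in Ifi202b. Ifi203, Mndal, Ifi207 and Ifi208 held the same letters, GAAATCGAAA, and Ifi211 held GAAATTGAAA. A match of letters describes the window and does not show that a factor binds there. The windows are sequence of the reference genome, and the sequence of these tumours was not read.

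Within KO-IgG, replicates 2 and 3 were nearly identical over abundant genes, as were replicates 1 and 2 within KO-ICB (robust SD of the log2 ratio 0.0619 and 0.0382). The remaining 10 pairs of libraries from a common group had values of 0.219 to 0.686. Each near-identical pair was averaged and counted as 1 sample, which leaves 10 samples, 3 per CTRL group and 2 per KO group. Trex1 itself was at 32.8 to 46.2 TPM in CTRL and at 56.0 to 72.2 TPM in KO libraries, so every KO library lay above every CTRL library. A transcript level need not show a CRISPR-Cas9 edit, and KO stands for the label throughout. KO-IgG replicate 1 stood apart in cell markers, and CTRL-IgG replicate 3 and CTRL-ICB replicate 3 held skin transcripts (Krt5, a keratin of basal skin cells, at 328 and 770 TPM against at most 17.2 TPM elsewhere). Groups are named as labelled.

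Ifi202b was the most abundant member and Ifi208 the least. Over the 10 samples the mean was 239 ± 86.0 TPM (SD) for Ifi202b, 116 ± 39.9 for Ifi203, 77.7 ± 25.9 for Ifi204, 68.9 ± 27.5 for Mndal, 27.4 ± 10.1 for Ifi211, 15.7 ± 9.66 for Aim2, 9.35 ± 2.96 for Ifi207, 5.95 ± 5.53 for Ifi205, 2.77 ± 0.991 for Ifi209 and 1.23 ± 0.915 for Ifi208. The order held between neighbours in 10 of 10 samples for Ifi202b over Ifi203, Ifi203 over Ifi204, Mndal over Ifi211 and Ifi209 over Ifi208. It held in 9 of 10 samples for Ifi204 over Mndal, Ifi211 over Aim2, Aim2 over Ifi207 and Ifi207 over Ifi205, and in 8 of 10 for Ifi205 over Ifi209. The means of Ifi203 and Ifi204, of Ifi204 and Mndal, of Aim2 and Ifi207, of Ifi207 and Ifi205 and of Ifi205 and Ifi209 lay closer together than the larger SD of each pair.

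The abundant members took similar shares of the family's transcript in every library, while the family's total varied 3.22-fold. Summed over the 10 members, TPM was 807, 445 and 255 in CTRL-IgG replicates 1, 2 and 3, and 429, 456 and 457 in CTRL-ICB. It was 483, 819 and 808 in KO-IgG and 812, 789 and 694 in KO-ICB. CTRL-IgG replicate 1 thus lay among the 5 high KO libraries, and KO-IgG replicate 1 lay near the other CTRL libraries. Ifi202b made up 40.0% to 45.1% of that sum in every library, Ifi203 16.9% to 22.5%, Ifi204 9.54% to 16.7%, Mndal 10.3% to 14.5% and Ifi211 3.62% to 5.95%. Shares of smaller members moved more, Aim2 from 1.64% to 5.50%, Ifi205 from 0.474% to 2.40% and Ifi208 from 0.101% to 0.354%. The share of Ifi208 was 0.213% or more in every KO library and 0.173% or less in every CTRL library. No CTRL library reached 1 TPM of Ifi208, and only KO libraries took it past the filter of 1 TPM in 3 or more libraries. Its separation is therefore not independent of that filter.

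**Figure D2:**
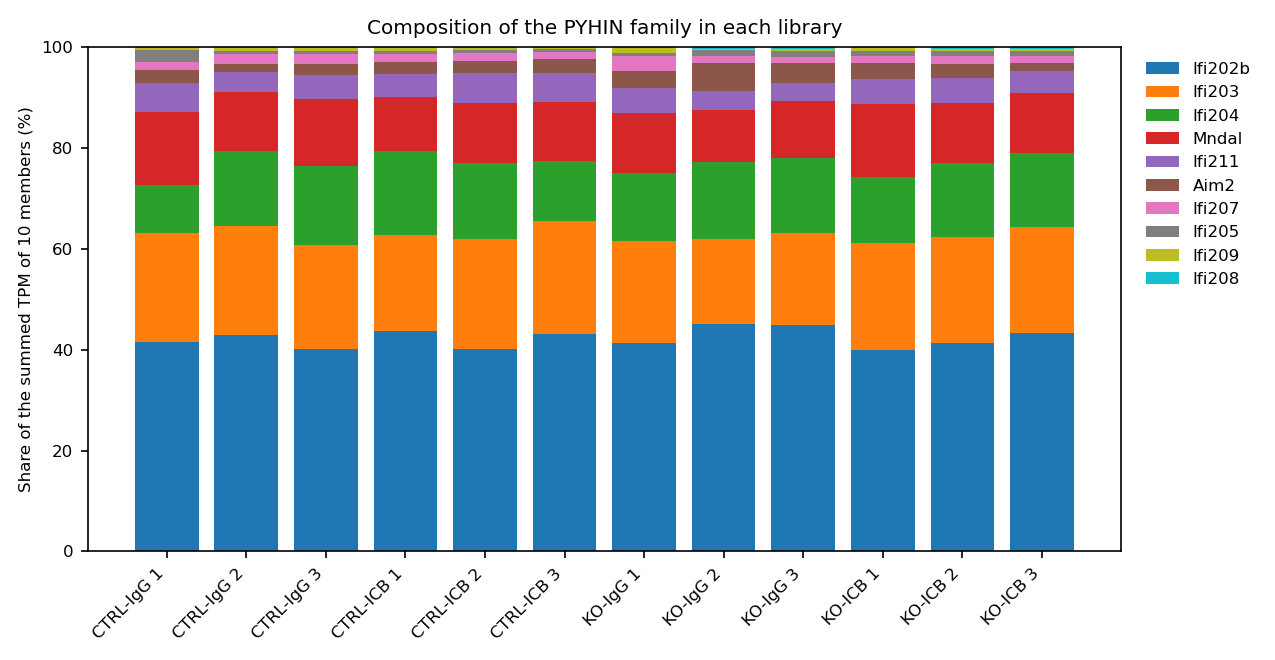
Share of each member in the summed TPM of the 10 members (vertical axis, %) in each of the 12 libraries. Ifi202b takes 40.0% to 45.1% in all of them.

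Transcripts of the DNA sensor AIM2 and of its inhibitor p202 had higher means in KO than in CTRL tumours, and neither passed the test. For replicates 1, 2 and 3 in order, here and for each later member, Aim2 stood at 21.4, 7.89 and 5.65 TPM in CTRL-IgG, at 9.68, 10.4 and 13.0 TPM in CTRL-ICB, at 16.5, 45.1 and 30.9 TPM in KO-IgG and at 25.3, 21.3 and 11.4 TPM in KO-ICB. KO-IgG replicates 2 and 3 were highest, and the genotypes overlapped through CTRL-IgG replicate 1 and KO-ICB replicate 3. KO-IgG replicates 2 and 3 differed by more in Aim2 than in Ifi202b, although these libraries were nearly identical over abundant genes. Ifi202b stood at 335, 191 and 102 TPM in CTRL-IgG, at 188, 183 and 197 TPM in CTRL-ICB, at 199, 369 and 363 TPM in KO-IgG and at 325, 325 and 299.9 TPM in KO-ICB. All KO libraries lay above all CTRL libraries but CTRL-IgG replicate 1, though KO-IgG replicate 1 only narrowly (199 against 197 TPM in CTRL-ICB replicate 3). The log2 fold change of KO against CTRL, averaged over treatments on log2(TPM + 1), was 0.89 ± 0.38 (SE) for Aim2 (limma adjusted p = 0.404 over all genes) and 0.62 ± 0.30 for Ifi202b (adjusted p = 0.462). That of Ifi202b was 0.41 without CTRL-IgG replicate 3 and 0.40 without the averaged KO-IgG pair.

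Ifi204, whose product is the mouse counterpart most often set beside human IFI16, overlapped between the genotypes through 1 KO library and did not pass the test. It stood at 77.0, 66.1 and 39.9 TPM in CTRL-IgG, at 71.8, 68.3 and 54.2 TPM in CTRL-ICB, at 65.1, 124 and 119 TPM in KO-IgG and at 106, 116 and 102 TPM in KO-ICB. Only KO-IgG replicate 1 overlapped CTRL, and it lay below 4 of the 6 CTRL libraries. With that sample left out, 6.49% of all genes had all KO samples above all CTRL samples. Ifi204 averaged 62.9 ± 13.6 TPM in CTRL (SD, n = 6) and 100.0 ± 24.7 TPM in KO (n = 4), a log2 fold change of 0.65 ± 0.23 (adjusted p = 0.323), which was 0.43 without the averaged KO-IgG pair.

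The close neighbours Ifi203, Mndal and Ifi211 were highest in CTRL-IgG replicate 1. Ifi203 stood at 174, 96.3 and 52.2 TPM in CTRL-IgG, at 81.4, 99.0 and 103 TPM in CTRL-ICB, at 97.9, 138 and 147 TPM in KO-IgG and at 172, 167 and 146 TPM in KO-ICB. Mndal, named for its likeness to human MNDA, stood at 117, 52.0 and 33.9 TPM in CTRL-IgG, at 45.5, 54.7 and 53.0 TPM in CTRL-ICB, at 57.5, 84.4 and 91.2 TPM in KO-IgG and at 117, 93.8 and 82.3 TPM in KO-ICB. Ifi211, which shares most of its transcript words with other members, stood at 45.6, 17.6 and 11.9 TPM in CTRL-IgG, at 20.1, 27.1 and 26.6 TPM in CTRL-ICB, at 24.0, 32.2 and 29.3 TPM in KO-IgG and at 41.0, 39.4 and 30.7 TPM in KO-ICB. In all of these the 3 KO-ICB libraries lay above the 3 CTRL-ICB libraries, while the isotype groups overlapped. The log2 fold changes were 0.52 ± 0.29 for Ifi203 (adjusted p = 0.536), 0.56 ± 0.30 for Mndal (adjusted p = 0.521) and 0.42 ± 0.32 for Ifi211 (adjusted p = 0.662). Without CTRL-IgG replicate 3 they were 0.30, 0.36 and 0.22, and without CTRL-IgG replicate 1 that of Ifi211 was 0.69.

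Ifi205, whose product controls expression of the inflammasome adaptor ASC in mouse macrophages, varied most between libraries, by 16.0-fold. It stood at 19.3, 2.76 and 1.21 TPM in CTRL-IgG, at 2.52, 3.02 and 2.36 TPM in CTRL-ICB, at 2.99, 9.12 and 9.82 TPM in KO-IgG and at 8.31, 9.02 and 7.22 TPM in KO-ICB. Both its highest and its lowest value came from CTRL-IgG tumours. Ifi207 stood at 13.5, 8.38 and 5.37 TPM in CTRL-IgG, at 7.39, 7.13 and 6.38 TPM in CTRL-ICB, at 13.8, 10.9 and 10.5 TPM in KO-IgG and at 11.99, 11.5 and 9.13 TPM in KO-ICB. It varied least between libraries, by 2.56-fold, and all KO libraries lay above all CTRL libraries but CTRL-IgG replicate 1. The log2 fold changes were 0.76 ± 0.56 for Ifi205 (adjusted p = 0.648) and 0.49 ± 0.24 for Ifi207 (adjusted p = 0.479). That of Ifi205 was 1.23 without CTRL-IgG replicate 1, 0.43 without CTRL-IgG replicate 3 and 0.41 without the averaged KO-IgG pair.

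Ifi208 and Ifi209 were the least abundant members, and Ifi208 alone among the members separated the genotypes in full. Ifi208 stood at 0.811, 0.704 and 0.440 TPM in CTRL-IgG, at 0.521, 0.630 and 0.572 TPM in CTRL-ICB, at 1.03, 2.79 and 2.86 TPM in KO-IgG and at 2.12, 2.54 and 2.40 TPM in KO-ICB. Every KO library was above every CTRL library, with KO-IgG replicate 1 the lowest of them. Its KO mean of 2.15 ± 0.778 TPM (n = 4) was 3.5 times the CTRL mean of 0.613 ± 0.133 TPM (n = 6), while its log2 fold change was 0.93 ± 0.23 after the offset of 1 TPM, with an adjusted p of 0.177. Over the 12 libraries, which count both libraries of each near-identical pair as replicates, the adjusted p of Ifi208 was 0.0244 by limma. Without KO-IgG replicate 1, which leaves only the averaged pair in KO-IgG, its log2 fold change was 1.16. Ifi208 passed the filter on low values only through KO libraries, since no CTRL library reached 1 TPM, and without a filter its adjusted p was 0.216. Ifi209, which RefSeq lists with the synonym Pyhin1, stood at 3.31, 2.76 and 1.70 TPM in CTRL-IgG, at 2.48, 2.12 and 1.34 TPM in CTRL-ICB, at 4.81, 2.77 and 3.32 TPM in KO-IgG and at 3.70, 3.35 and 2.62 TPM in KO-ICB, with a log2 fold change of 0.46 ± 0.24 (adjusted p = 0.499).

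**Figure D3:**
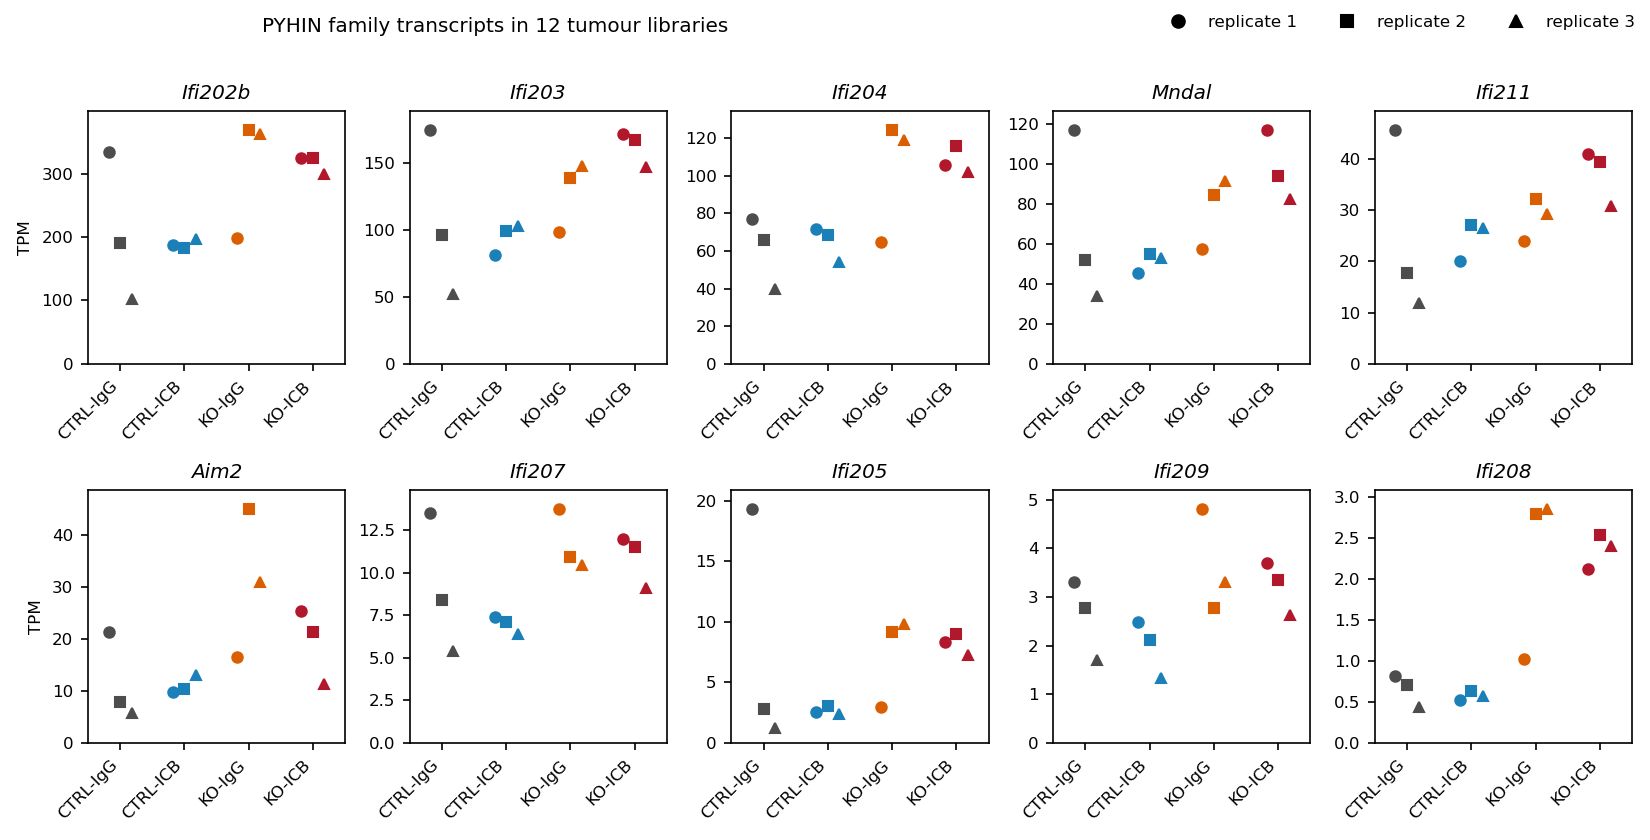
TPM of each member (vertical axes, linear from 0) in every library, by group, with the symbol giving the replicate number. CTRL-IgG replicate 1 is the highest CTRL library for all 10 members, and Ifi208 is the only member with all KO libraries above all CTRL libraries.

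Averaged over treatments, all 10 members had a positive log2 fold change in KO against CTRL, with a median of 0.59 and a range of 0.42 to 0.93, and none passed the test. Of all genes tested, 46.2% had a positive fold change and the median was -0.03. By limma 0 of 10 members passed an adjusted p of 0.05, against 0.108% of all genes (0.072% higher). At an unadjusted p under 0.05 the count was 3 (Aim2, Ifi204 and Ifi208), against 11.5% of all genes. Ifi208 passed the filter on low values only through KO libraries, so its separation and its calls are not independent of that filter. The 4 KO samples lay above all 6 CTRL samples for 1 of 10 members, Ifi208, against 2.05% of all genes. Without CTRL-IgG replicate 1 that count was 4 (Ifi202b, Ifi207, Ifi208 and Mndal) against 2.96% of genes, and without KO-IgG replicate 1 it was 2 (Ifi204 and Ifi208) against 6.49%. Leaving out any other sample left it at 1. Over the 12 libraries 1 member, Ifi208, passed, against 1.94% of genes called higher, and without KO-IgG replicate 1 it was again Ifi208 alone, against 1.12%. The members share reads and libraries and are not independent of each other.

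Within each treatment the fitted log2 fold change of KO against CTRL was again positive for all 10 members, and none passed the test. By mean TPM, Ifi205 went the other way under isotype antibodies, with 7.77 TPM in CTRL-IgG and 6.23 TPM in KO-IgG. In KO-ICB against CTRL-ICB, both KO samples lay above all 3 CTRL samples for 9 of 10 members, all but Aim2, against 17% of all genes. The median log2 fold change of the members was 0.72, with a range of 0.46 to 1.30. None passed by limma, against 0.0072% of genes, and Ifi208 had an unadjusted p under 0.05 (log2 fold change 1.10 ± 0.33, adjusted p = 0.446), against 7.98% of genes. In KO-IgG against CTRL-IgG the same separation held for 1 of 10 members, Ifi208, against 7.5% of genes. There the median was 0.46, with a range of 0.22 to 1.25, 0 members and 0% of genes passed, and Aim2 (1.25 ± 0.53, adjusted p = 0.947) and Ifi208 (0.76 ± 0.33, adjusted p = 0.951) had an unadjusted p under 0.05, against 5.15% of genes. Without the averaged KO-IgG pair Aim2 was at 0.67 and Ifi208 at 0.30, and without KO-IgG replicate 1 Ifi208 was at 1.22. Because only KO libraries took Ifi208 past the filter on low values, its separation and p-values in both treatments are not independent of that filter. The isotype median was 0.81 without CTRL-IgG replicate 1, 0.75 without KO-IgG replicate 1, 0.15 without the averaged KO-IgG pair and 0.13 without CTRL-IgG replicate 3. The difference between the treatments was tested by the interaction, in which 0 members and 0% of genes passed by limma, with unadjusted p of 0.346 or more for every member. Its smallest p was that of Mndal (0.60 ± 0.61, adjusted p = 0.9995), which was 0.11 without CTRL-IgG replicate 1, 0.30 without KO-IgG replicate 1, 0.90 without the averaged KO-IgG pair and 0.99 without CTRL-IgG replicate 3.

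Between checkpoint and isotype antibodies no member passed the test in either genotype. In CTRL tumours 4 of 10 members had a positive log2 fold change, from -0.61 to 0.18 with a median of -0.05, while 1 of 10, Ifi204, had a higher mean TPM under ICB. None passed by limma, 0% of genes passed, and 0 members had an unadjusted p under 0.05, against 1.27% of genes. No member had all CTRL-ICB above all CTRL-IgG samples, against 1.49% of genes, and the smallest p was that of Ifi209 (-0.26 ± 0.30, adjusted p = 1.00), which became -0.45 when CTRL-IgG replicate 3 was left out, -0.12 for CTRL-IgG replicate 1 and -0.10 for CTRL-ICB replicate 3. In KO tumours 7 of 10 were positive, with a median of 0.26, and Aim2, which had the smallest p, was at -0.59 ± 0.59 (adjusted p = 0.998). Each sample moved that Aim2 value, to -1.17 without KO-IgG replicate 1, -0.01 without the averaged KO-IgG pair, -0.10 without KO-ICB replicate 3 and -1.08 without the averaged KO-ICB pair. None passed by limma, 0% of genes passed, 0 members had an unadjusted p under 0.05 against 3.19% of genes, and 2 members (Ifi203 and Ifi211) had both KO-ICB samples above both KO-IgG samples against 17.5%. The sign of these medians rested on single libraries. The CTRL median was 0.32 without CTRL-IgG replicate 1 and -0.43 without CTRL-IgG replicate 3, and the KO median was -0.11 without KO-IgG replicate 1 and 0.66 without the averaged KO-IgG pair.

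**Figure D4:**
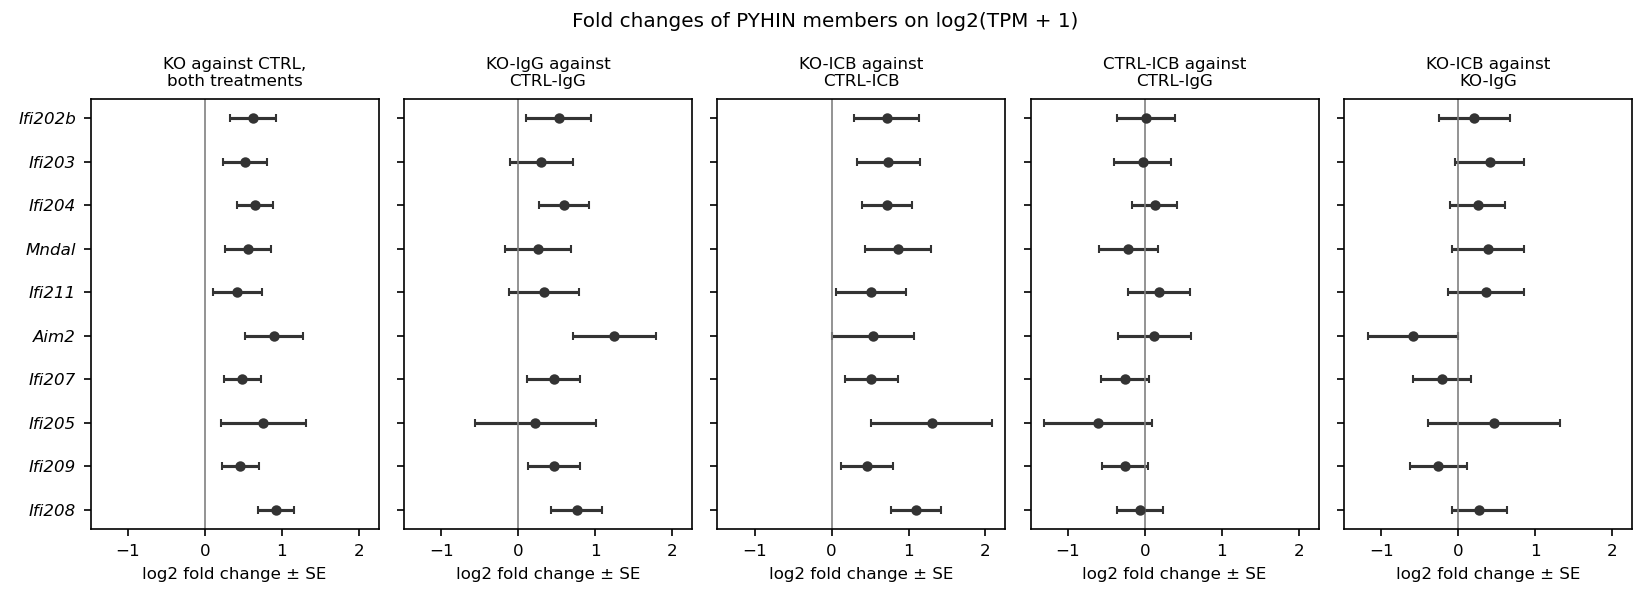
Log2 fold change ± SE of each member on log2(TPM + 1) (horizontal axes) in 5 comparisons, over 10 samples. All 10 members lie right of 0 in the 3 comparisons of KO with CTRL, and on both sides of 0 for ICB against IgG.

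Other family symbols of the table stood below 2 TPM in every library. Ifi214 was at 0.278 to 0.502 TPM in CTRL and at 0.740 to 1.79 TPM in KO libraries, and passed the filter on low values only through KO libraries. Ifi206, which did not pass it, was at 0.0283 to 0.233 TPM in CTRL and at 0.241 to 1.36 TPM in KO libraries. For Ifi214 and Ifi206, as for Ifi208, every KO library lay above every CTRL library, at values near the floor. Among all genes tested, 2.05% had all KO samples above all CTRL samples. Ifi214 and Ifi206 share transcript words with Ifi209 and Ifi208. Ifi213 was at 0.188 to 1.63 TPM in CTRL and at 0.342 to 1.91 TPM in KO libraries, and the pseudogene Ifi203-ps was at most at 0.444 TPM.

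Genes of the pathways around the family were taken from 4 lists that hold none of the members. Of 11 inflammasome genes 7 had a positive log2 fold change in KO against CTRL, with a median of 0.12, and 0 passed by limma, as in the other 3 lists. The smallest p-values were those of Casp1, the protease that AIM2 activates (124 ± 18.3 TPM in KO against 77.2 ± 16.7 TPM in CTRL, log2 fold change 0.70 ± 0.17, adjusted p = 0.173), its substrate Il1b (81.6 ± 13.8 against 129 ± 22.8 TPM, -0.66 ± 0.18, adjusted p = 0.195) and Casp4, which senses lipopolysaccharide (39.1 ± 7.23 against 25.8 ± 7.31 TPM, 0.62 ± 0.24, adjusted p = 0.361). Of 18 genes of DNA sensing and clearance 14 were positive, with a median of 0.24, led by Ikbke, a kinase of IRF3 (27.8 ± 4.78 against 16.0 ± 2.78 TPM, 0.76 ± 0.18, adjusted p = 0.160), Trex1 (0.61 ± 0.16, adjusted p = 0.180) and Zbp1, a sensor of Z-form nucleic acids (232 ± 59.4 against 147 ± 18.1 TPM, 0.63 ± 0.17, adjusted p = 0.199). All 18 type I interferon-stimulated genes were positive, with a median of 0.81, led by Mx1 (1.37 ± 0.30), Ifit3 (1.26 ± 0.30) and Ifit2 (0.82 ± 0.20). Of 12 genes induced by interferon gamma 11 were positive, with a median of 0.50, led by Igtp (1.00 ± 0.18), Socs1 (1.19 ± 0.26) and Irgm1 (0.72 ± 0.18). At an unadjusted p under 0.05 the counts were 3 of 11, 6 of 18, 13 of 18 and 7 of 12 in this order, against 11.5% of all genes, and the 6 leading interferon genes had adjusted p-values from 0.103 to 0.180.

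The family and the interferon-stimulated list were both high in the KO libraries other than KO-IgG replicate 1, and they parted in CTRL-IgG replicate 1. That library held 807 TPM of the family, as the high KO libraries did, and 2295 TPM of the 18 interferon-stimulated genes, within the 1746 to 2646 TPM of CTRL, against 5001 to 5723 TPM in the KO libraries other than KO-IgG replicate 1. KO-IgG replicate 1 held 483 TPM of the family and 1908 TPM of that list. CTRL-IgG replicate 3 was the lowest library in both, at 255 and 1746 TPM. Isg15, an interferon-induced ubiquitin-like protein, is 1 of these 18 genes and was named outside the rule of smallest p. It was at 132 TPM in CTRL-IgG replicate 1, its lowest value, and KO-IgG replicate 1 had 140 TPM. The summed list was not lowest in CTRL-IgG replicate 1 (2295 TPM against 1746 TPM in CTRL-IgG replicate 3). The cause of these levels was not tested.

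Markers of cell types moved between the libraries as well, and in bulk tumours fewer cells of a type and less RNA per cell cannot be told apart. The 10 macrophage genes, all detected, summed to 1346 to 4818 TPM in CTRL, with 2233 TPM in CTRL-IgG replicate 1, while KO-IgG replicate 1 reached 8146 TPM and the remaining KO libraries lay at 2669 to 2926 TPM. The library with the most macrophage transcript thus held less of the family than the other KO libraries did, while Ifi207 and Ifi209 were highest there. The 7 epithelial genes summed to 4348 TPM in CTRL-IgG replicate 1 and 1972 to 3403 TPM in the other CTRL libraries, and to 1436 TPM in KO-IgG replicate 1 and 4552 to 5048 TPM in the other KO libraries. Epcam, an epithelial adhesion molecule singled out after its values were seen, was at 1113 TPM in CTRL-IgG replicate 1 and 1087 to 1239 TPM in the 5 high KO libraries. It stood at 87.1 to 701 TPM in the remaining CTRL libraries and was lowest, at 0.661 TPM, in KO-IgG replicate 1. The 6 libraries with the most Epcam were the 6 with the most family transcript, and the summed epithelial list was highest in the same 6. Krt8, another gene of that list, did not keep this order. It was at 1028 TPM in CTRL-ICB replicate 1, against 938 and 915 TPM in KO-IgG replicates 2 and 3. The part of epithelial genes in the difference between the genotypes was not tested.

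**Figure D5:**
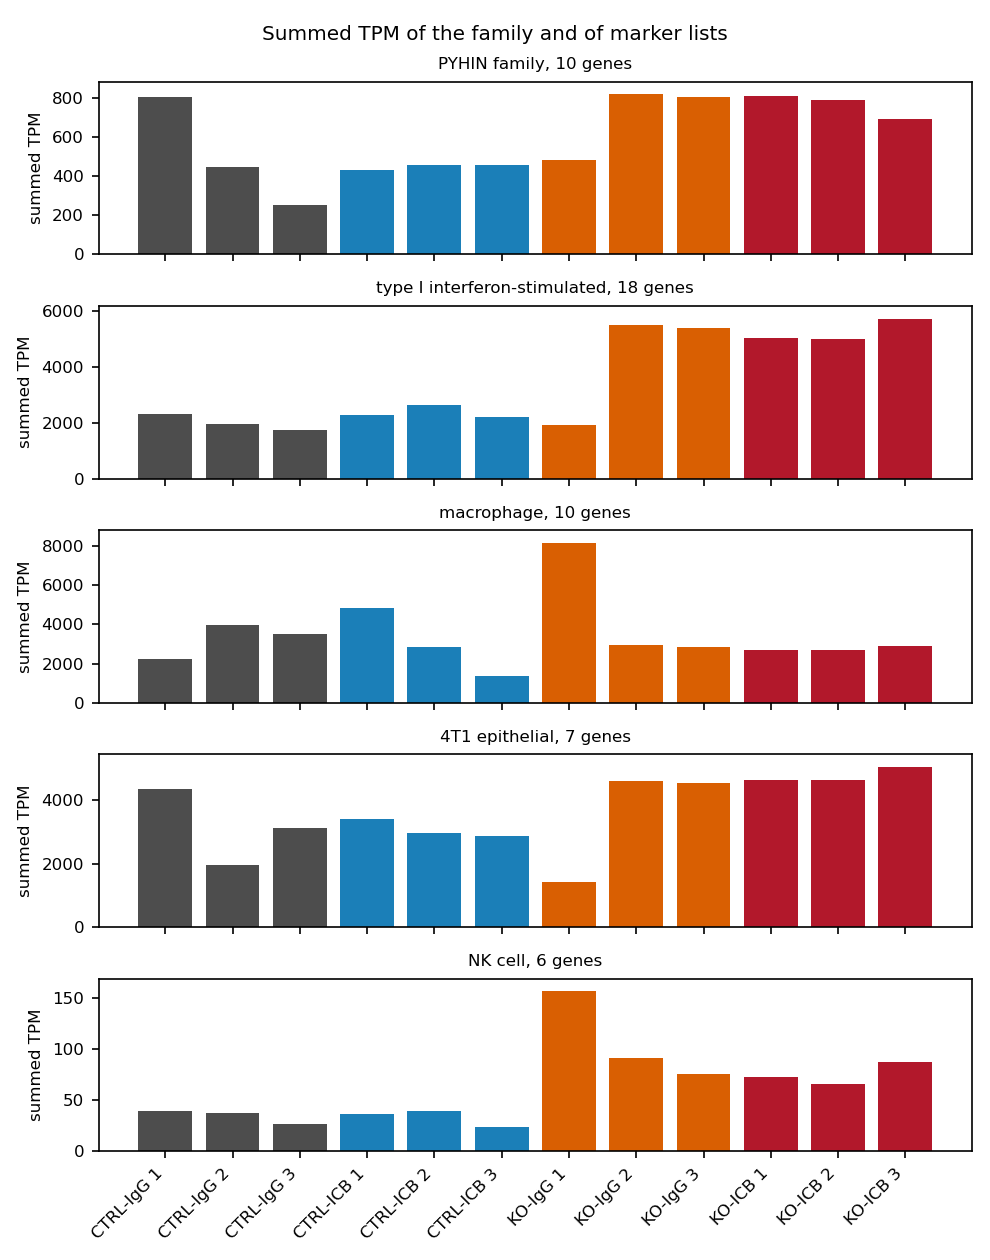
Summed TPM (vertical axes, linear from 0) of the 10 family members and of 4 gene lists in each library, coloured by group. CTRL-IgG replicate 1 has a family sum (807 TPM) near those of the 5 high KO libraries and an interferon-stimulated sum (2295 TPM) within the range of CTRL, and KO-IgG replicate 1 has the highest macrophage and NK cell sums.

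Summed NK and T cell markers did not overlap between the genotypes, although no gene of these lists passed the test. The 6 NK cell genes summed to 66.2 to 156 TPM in KO against 24.3 to 39.5 TPM in CTRL. For the 8 T cell genes the sums were 68.3 to 171 TPM against 32.2 to 57.4 TPM. By limma 6 of 6 and 7 of 8 had an unadjusted p under 0.05, against 11.5% of all genes. Of single genes, 2.05% had all KO samples above all CTRL samples. The 8 dendritic cell genes summed to 27.0 to 46.5 TPM in KO against 19.1 to 31.9 TPM in CTRL, and the 4 leucocyte genes to 465.9 to 1060 TPM against 353 to 690 TPM. The 6 B cell genes summed to 1.70 to 2.63 TPM in CTRL, to 14.1 TPM in KO-IgG replicate 1 and to 1.35 to 4.05 TPM in the other KO libraries, with Cd79a, Cd79b, Ms4a1 and Pax5 under 1 TPM throughout. Neutrophil genes summed to 32.1 to 115 TPM in KO against 181 to 903 TPM in CTRL, with Ly6g under 1 TPM throughout, and 2 of the 6 tested fell in KO by limma, against 0.036% of all genes. Fibroblast genes summed to 234 to 509 against 376 to 2241 TPM. Skin genes reached 3567 and 5821 TPM in CTRL-IgG replicate 3 and CTRL-ICB replicate 3, against 3.67 to 417 TPM elsewhere, and muscle genes 57.4 to 61.2 TPM in KO-ICB against 4.32 to 23.1 TPM elsewhere. CTRL-IgG replicate 3 was the lowest library for 9 of the 10 members, and without both libraries with skin transcripts the members' median of KO against CTRL was 0.39. The part of these cell types in the family's values was not tested.

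The genes whose profile over the 10 samples was nearest to the mean profile of the members were Trim30a, Gsap, Recql, Parp11 and Pyroxd2. Their root mean square difference from it was 0.11, 0.17, 0.20, 0.21 and 0.21 on the log2 scale, against a spread of the family profile of 0.49. Trim30a, an interferon-inducible TRIM protein of the mouse, averaged 37.9 TPM and had a log2 fold change of 0.63 in KO against CTRL. Among the members, Ifi202b (0.12), Mndal (0.13) and Ifi203 (0.14) lay nearest to the family mean, of which each is a part, and Ifi205 farthest (0.51).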

How the data were processed

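RNA-seq of polyadenylated RNA from tumours, in 12 libraries, was deposited as 1 table of TPM per gene symbol by the authors. Whether the near-identical libraries came from separate tumours is unknown. Per the submitters' processing notes, kallisto and GRCm38 were used. The sources used here do not give the version, the transcript set or the use of strand. TPM is a share of a library, so large changes of abundant transcripts shift all others.

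Libraries of a group whose log2 ratios over genes above 300 TPM had a robust SD under 0.1 were averaged. The 13886 genes that reached 1 TPM in 3 or more libraries were fitted on log2(TPM + 1) with 4 group means. The fit was done in limma 3.58.1 (R 4.3.3, trend, robust), with Benjamini-Hochberg adjustment over all genes and a threshold of 0.05. Only the averaged comparison of the main fit was run on simulated data, with independent normal values for each gene. The other comparisons and settings were not tested in that way. The offset of 1 understates fold changes of low genes. P-values measure the spread between these samples. Transcript words of 31 bases and promoter windows were read by gene symbol with Python 3.11.15 and Biopython 1.88.

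The members, gene lists, averaging and alternatives were chosen with earlier results of these data known. Every member is named. Outside the averaged comparison, fold changes of single members are given for those with an unadjusted p under 0.05 or, where there is none, for the smallest p. Of each pathway list the 3 genes with the smallest p are named, and the 5 genes nearest to the family profile. Alternatives were other normalizations, filters, offset and variance model, all 12 libraries, a replicate block, only the groups compared, and leaving out samples.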

Additional observations from a re-analysis of the deposited data

Results flagged for a closer look

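In CTRL-IgG replicate 1, 3 members lay far above the other 5 CTRL samples. Ifi205 was at 19.3 TPM there against at most 3.02 TPM in the others, Mndal at 117 TPM against at most 54.7 TPM, and Ifi207 at 13.5 TPM against at most 8.38 TPM. The gap to the next sample took more of the range of the 6 CTRL samples than Dixon's critical value allows. Of 20 groups looked at (10 members in CTRL and in KO) 3 met that bound, where chance gives about 1 in 20, and all 3 concern the same library and genes that can share reads. Their cause was not tested.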

How the results depend on the processing

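Of 20 alternatives 19 apply to KO against CTRL averaged over treatments, since comparing only the groups involved leaves it as it is. Under these 19, all 188 values of members stayed positive, and the members' median lay between 0.39 and 0.78. Part of these values could not move. Other filters and the variance model repeat a member's main fold change, and the block repeats that of the 12 libraries. All 12 libraries count both libraries of each near-identical pair as replicates. With them Ifi208 was called in the averaged comparison, without and with the replicate block (adjusted p = 0.0244 and 0.0454 by limma). The number of members called there was 0 in the main analysis, 1 over all 12 libraries and 1 with the block. It ranged from 0 to 1 when each sample was left out, with Ifi208 called without KO-IgG replicate 1. In the other comparisons the members' medians moved by less than the pooled SD of the family level between replicates (0.48), but those of ICB against IgG and of the interaction changed sign, the interaction to -0.10 without CTRL-IgG replicate 1. No member named with a fold change was reversed, and 301 of 304 such values kept their side of the threshold. Part of the 304 fold changes were fixed beforehand, since leaving out a sample of a group not compared leaves them as they are. A filter of 5 TPM removed Ifi208 and Ifi209. Libraries with the same replicate number did not deviate together (correlations from -0.364 to 0.27 over 18 pairs, 5 above 0.1, and 3 of 12 libraries nearest to their own number), so the block pairs them by number only. Where a KO group was left with 1 sample, that sample was assumed to vary like the other groups. TPM hold no read numbers, so the precision of low members such as Ifi208 is unknown.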
